A study of Mus musculus with 24 samples.

Results

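The genes described here are 8 hydrolases of the kidney proximal tubule, taken by name from the 35413 genes that could be counted: Ggt1, Anpep, Mme, Mep1a, Mep1b, Dpep1, Treh and Napsa. On build GRCm38 they are Ggt1 (ENSMUSG00000006345, chromosome 10), Dpep1 (ENSMUSG00000019278, chromosome 8), Mep1a (ENSMUSG00000023914, chromosome 17), Mep1b (ENSMUSG00000024313, chromosome 18), Anpep (ENSMUSG00000039062, chromosome 7), Mme (ENSMUSG00000027820, chromosome 3), Treh (ENSMUSG00000032098, chromosome 9) and Napsa (ENSMUSG00000002204, chromosome 7). The estimated reads of all transcripts of each gene were summed, and all 8 genes passed the filter on low counts in both experiments, among 16959 genes tested in the knockout experiment and 16404 in the antibody experiment. The kidneys came from 5 groups of mice. In the knockout experiment, libraries labelled knockout came from mice with floxed Enpp1 and a tamoxifen-inducible Cre driven by the ubiquitous CAG promoter (n = 6), and wild-type libraries from mice without that Cre (n = 6), both after 14 days on an adenine diet, and a further group ate chow (n = 4). In the antibody experiment, mice on adenine received a humanized monoclonal antibody against human ENPP1 (n = 4) or control IgG (n = 4), at 50 mg/kg into the peritoneum 2 times a week until day 14. Throughout, n counts libraries, and the labels do not say whether each came from a separate animal. The sources used here do not give age, sex or strain, the genotype of the chow mice, which exons were floxed, whether wild-type and chow mice received tamoxifen, or whether mice given the antibody had the human gene. A difference from chow therefore cannot be told apart from a difference in genotype.

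The brush border is the carpet of microvilli on the urinary face of the proximal tubule cell, and its membrane carries hydrolases at very high density. They finish the digestion of filtered peptides and sugars, so that the amino acids and glucose can be taken up by neighbouring carriers, and they cut circulating signalling peptides and glutathione. Loss of these enzymes from the membrane and their appearance in urine are long-used signs of tubular injury. Adenine is oxidised to a poorly soluble product that precipitates in the tubules. Of the 8 genes, Treh is the only glycosidase, and Napsa does not belong to the brush border membrane: its product, napsin A, is an aspartic protease of lysosomes and secretory vesicles, known from proximal tubule and from lung alveolar type 2 cells.

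Libraries held 21164187 to 28350038 assigned reads in the knockout experiment and 44080791 to 50813749 in the antibody experiment. Enpp1 RNA, the check of the labels, had a lowest, median and highest value of 21.5, 22.3 and 24.7 CPM (counts scaled to a common library size by TMM) in libraries labelled knockout and of 20.9, 21.3 and 24.9 CPM in wild-type libraries. It was thus not lower in the libraries labelled knockout, and a short deletion need not show in a sum over whole transcripts. In the antibody experiment Enpp1 had 9.51, 2.62, 3.26 and 17.4 CPM in antibody libraries, which spread more widely than the 7.94, 8.86, 8.68 and 7.22 CPM of IgG libraries. The summed level of 7 other proximal tubule markers had a median of 5040 CPM in libraries labelled knockout, 1892 CPM in wild-type libraries on adenine and 7986 CPM in chow libraries, and of 4388 CPM in antibody libraries against 1228 CPM in IgG libraries. All 7 markers rose in libraries labelled knockout against wild type and in antibody against IgG libraries. Over all genes tested, 25.1% and 27.2% rose in these comparisons. In bulk kidney, fewer proximal tubule cells and less RNA per cell cannot be told apart, and the part of either in the values below was not tested. The 6 injured tubule markers summed to 589 to 864 CPM in libraries labelled knockout, 726 to 1056 CPM in wild-type libraries and 22.4 to 25.2 CPM in chow libraries, and to 1462 to 2148 CPM in antibody libraries against 2211 to 2725 CPM in IgG libraries. Of the markers of lung alveolar type 2 cells, Sftpc was at 0 in every wild-type, chow, antibody and IgG library, and the 3 together summed to at most 2.95 CPM in any library.

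Set per length, as TPM (the deposited, length-corrected unit), the 8 genes spanned a wide range in every group. In libraries labelled knockout Napsa was highest at 589.8 ± 58.5 TPM (SD, n = 6), then Ggt1 at 386 ± 31.9 TPM, and Anpep and Mep1a overlapped at 85.9 ± 2.91 and 79.7 ± 14.3 TPM. Dpep1, at 28.1 ± 8.28 TPM, stood above Treh (10.1 ± 1.37 TPM), Mme (9.35 ± 0.154 TPM) and Mep1b, which overlapped. In wild-type libraries on adenine Napsa (339.5 ± 37.8 TPM, n = 6) and Ggt1 (203 ± 16.9 TPM) were again highest, but Dpep1 (4.07 ± 1.35 TPM) and Mep1b (3.96 ± 1.63 TPM) were lowest and overlapped each other. In chow libraries Napsa had 2372 ± 135 TPM (n = 4), Ggt1 637 ± 15.1 TPM and Mep1a 209.6 ± 24.5 TPM. Anpep followed at 100.1 ± 3.28 TPM, Mep1b at 52.8 ± 3.01 TPM and Dpep1 at 40.5 ± 4.07 TPM. Mme, at 16.1 ± 1.59 TPM, and Treh, at 12.8 ± 0.784 TPM, were the only neighbours in the order of chow libraries that overlapped.

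The sequences shown first are the bases before the transcription start of Treh, Dpep1 and Mep1a. These members have 1 start each, with a match in its window to a motif named below. The level of the receptor Hnf4a is also given below. They are 250-base windows from RefSeq on build GRCm38.p6, at chr9:44672983-44673232 on the plus strand, chr8:123185985-123186234 on the plus strand and chr17:43502774-43503023 on the minus strand, 5′ to 3′ along the gene. Capitals mark matches, on either strand, to CAAAGTCCA (a motif of HNF4 nuclear receptors), to its first part CAAAGT, or to AGGTCA or GGGTCA (nuclear receptor half-sites). Mep1a matched CAAAGT only.
Treh: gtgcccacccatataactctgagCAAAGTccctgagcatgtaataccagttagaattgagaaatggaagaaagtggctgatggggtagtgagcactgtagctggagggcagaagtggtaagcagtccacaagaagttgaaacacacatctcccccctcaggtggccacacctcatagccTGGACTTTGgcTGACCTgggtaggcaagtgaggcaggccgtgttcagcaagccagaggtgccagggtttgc
Dpep1: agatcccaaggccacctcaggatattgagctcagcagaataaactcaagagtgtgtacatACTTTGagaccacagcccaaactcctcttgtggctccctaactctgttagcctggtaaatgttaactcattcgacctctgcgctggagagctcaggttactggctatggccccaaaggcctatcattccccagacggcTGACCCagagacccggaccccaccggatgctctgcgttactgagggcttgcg
Mep1a: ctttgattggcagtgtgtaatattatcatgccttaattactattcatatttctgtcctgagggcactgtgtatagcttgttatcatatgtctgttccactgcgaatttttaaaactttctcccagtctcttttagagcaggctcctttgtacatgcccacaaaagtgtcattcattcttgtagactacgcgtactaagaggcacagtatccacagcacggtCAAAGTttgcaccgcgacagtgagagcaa
Treh held CAAAGTCCA 71 to 63 bases before its start, a motif found in 0.387% of 32536 distinct windows of the same length. CAAAGT was found in 12.6% of all windows. It lay in the window of Treh, of Dpep1 (190 to 185 bases before the start) and of Mep1a (29 to 24 bases before). A window of Mme and of Ggt1 also held it, while other windows of both genes did not. A count of genes with several windows is therefore not set against a share of windows. AGGTCA and GGGTCA were found in 14.0% and 11.7% of all windows. The window of Anpep matched none of these motifs. GTTAAT, a motif of HNF1 factors found in 6.47% of all windows, was also searched and lay in none of the windows used. Windows were used for 6 of the 8 genes, without Mep1b and Napsa, and a match of letters shows no binding.

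All 8 genes were lower on adenine than on chow, and all but Mme were higher in libraries labelled knockout than in wild-type libraries on adenine. In libraries labelled knockout all 8 fell relative to chow, where 39.9% of the genes tested fell, 40.2% rose and 80.1% were called in either direction, with a median log2 change of -1.49 against 0.03 over all genes tested and adjusted p of at most 2.68e-06. In wild-type libraries all 8 fell relative to chow, where 40.9% of the genes tested fell, 44.0% rose and 84.9% were called in either direction, with a median log2 change of -2.93 against 0.07 over all genes and adjusted p of at most 1.17e-11. Between the adenine groups, 7 of the 8 were higher in libraries labelled knockout than in wild-type libraries, where 25.1% of the genes tested were higher, 21.3% lower and 46.4% called in either direction, with a median of 1.06 against -0.02. All 8 were higher with the antibody than with IgG, where 27.2% of the genes tested rose, 28.0% fell and 55.3% were called in either direction, with a median of 1.27 against -0.04. Calls are from the quasi-likelihood test of edgeR at a Benjamini-Hochberg adjusted p of 0.05 over all genes tested, and the comparisons with chow share the chow libraries. In CPM, the 2 groups compared overlapped only for Anpep and Mme between libraries labelled knockout and wild type. The plot shows CPM by library, and how often groups stood apart over all genes tested was not counted.

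**Figure D1:**
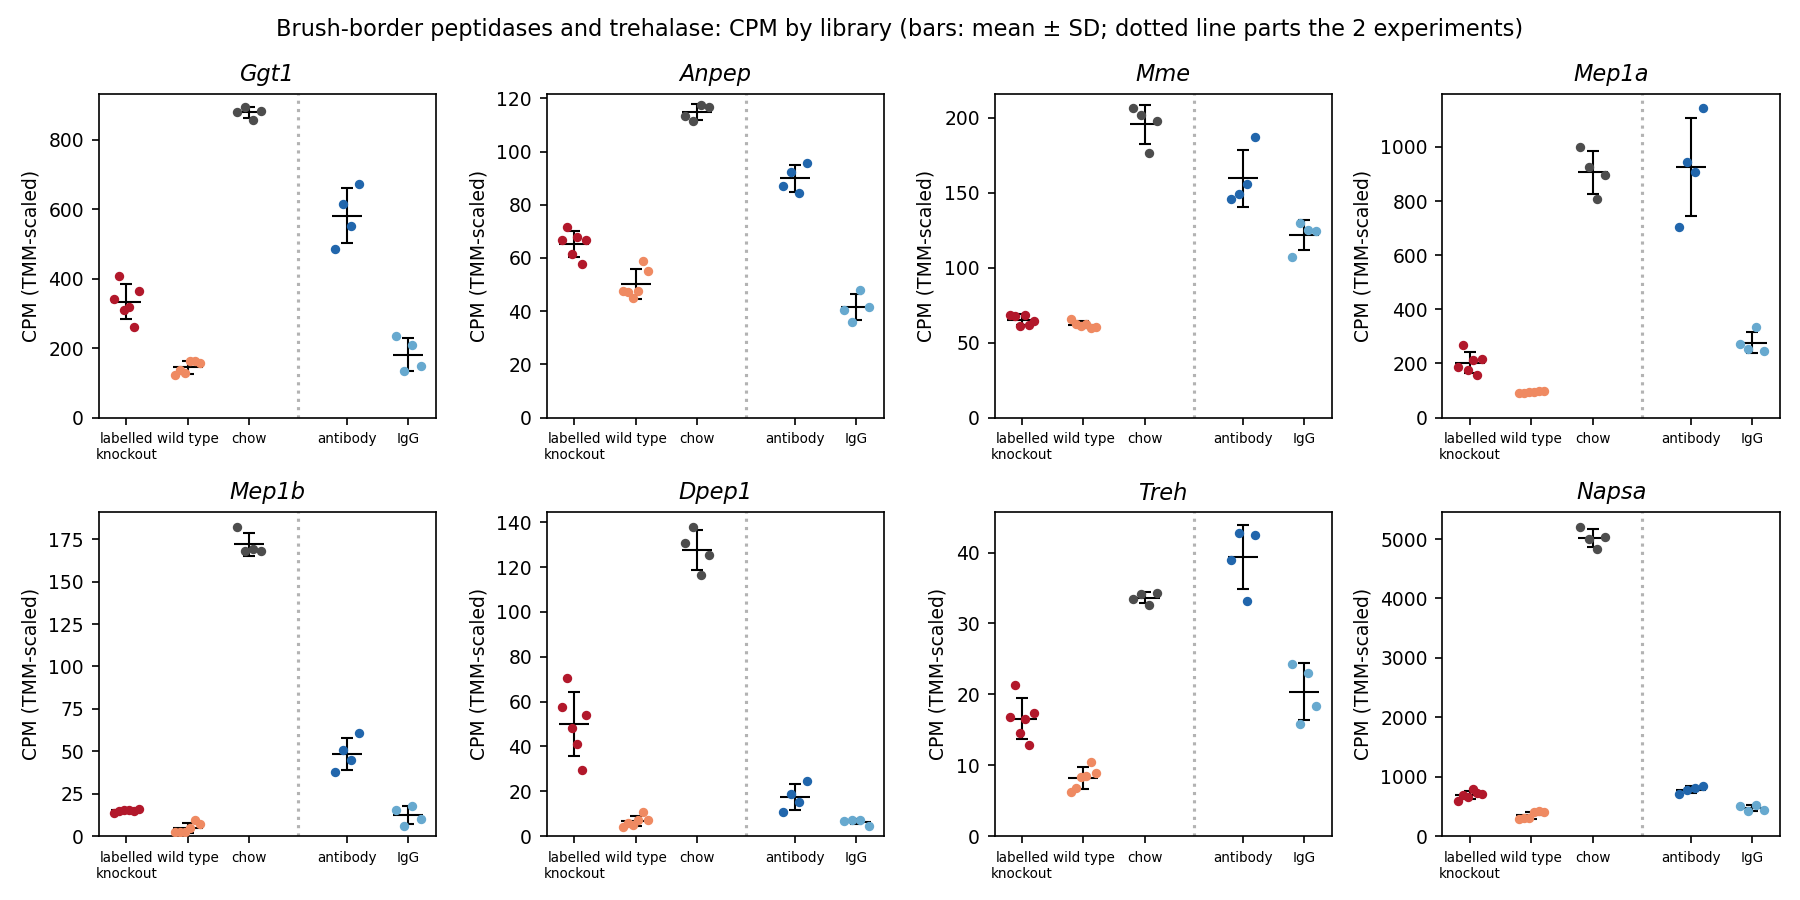
CPM (y axis, TMM-scaled within each experiment) of each of the 8 genes in every library (points) by group (x axis), with bars for mean ± SD. The dotted line parts the experiments, whose levels are scaled apart: chow libraries stand above both adenine groups for every gene, and antibody libraries above IgG libraries.

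Ggt1 and Dpep1 act in sequence on glutathione outside the cell. Ggt1 encodes gamma-glutamyltransferase, which removes the gamma-glutamyl group of glutathione and leaves cysteinylglycine, and Dpep1 encodes the membrane dipeptidase that splits cysteinylglycine and also converts leukotriene D4. Ggt1 had a lowest, median and highest value of 262, 329 and 407 CPM in libraries labelled knockout and of 122, 147 and 164 CPM in wild-type libraries on adenine, while chow libraries had 881, 895, 859 and 883 CPM. Each group stood apart from the other two, with chow highest and wild type on adenine lowest. Ggt1 was 2.30-fold higher in libraries labelled knockout than in wild-type libraries (log2 change 1.20 ± 0.095 SE, edgeR adjusted p = 3.98e-08). The group means corresponded to 38.0% of the chow level in libraries labelled knockout and 16.5% in wild-type libraries.

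Dpep1 had the largest change of the 8 genes between libraries labelled knockout and wild-type libraries. Its lowest, median and highest values were 29.3, 51.1 and 70.3 CPM in libraries labelled knockout and 4.05, 6.38 and 10.6 CPM in wild-type libraries on adenine, and chow libraries had 131, 138, 116 and 126 CPM. Even the lowest library labelled knockout stood well above the highest wild-type library, and the spread among libraries labelled knockout was wide. Dpep1 was 7.54-fold higher in libraries labelled knockout (log2 change 2.91 ± 0.21 SE, edgeR adjusted p = 1.37e-08), and ranked 16921 of 16959 genes tested, counted from the lowest change. Its CPM level was 39.3% of chow in libraries labelled knockout and 5.19% in wild-type libraries. The depth of the fall depended on the unit. In deposited TPM, libraries labelled knockout (16.3 to 40.8 TPM) overlapped chow libraries (35.0 to 44.2 TPM) for Dpep1. The 5 red blood cell genes, whose sum ranged from 204 to 492 CPM in libraries labelled knockout, from 12.5 to 35.7 CPM in wild-type libraries and from 1072 to 1295 CPM in chow libraries, had the same order of groups, and their part in these values was not tested.

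The ratio of Ggt1 to Dpep1 reads within a library, which does not depend on scaling between libraries, set the same genes side by side. It averaged 6.93 ± 1.22 in libraries labelled knockout (SD, n = 6), 23.3 ± 4.81 in wild-type libraries on adenine (n = 6) and 6.91 ± 0.383 in chow libraries (n = 4). The ratio was lower in libraries labelled knockout than in wild-type libraries without overlap (exact two-sided permutation p = 0.00216, the smallest this design allows, adjusted p = 0.0127 over 24 such tests). Libraries labelled knockout and chow libraries overlapped in this ratio (exact permutation p = 0.924). In the antibody experiment it averaged 35.3 ± 7.28 in antibody libraries and 28.5 ± 6.56 in IgG libraries, which overlapped (exact permutation p = 0.257, n = 4 each). These 24 tests of values within a library, 6 measures in 4 comparisons, were chosen after the data were seen.

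In the antibody experiment Ggt1 had 487, 614, 553 and 672 CPM in antibody libraries against 235, 135, 209 and 148 CPM in IgG libraries. Dpep1 had 10.8, 18.6, 15.4 and 24.5 CPM in antibody libraries against 6.89, 7.01, 7.25 and 4.62 CPM in IgG libraries. Neither gene overlapped between the groups. Ggt1 was 3.20-fold higher with the antibody (log2 change 1.68 ± 0.18 SE, edgeR adjusted p = 6.53e-05) and Dpep1 2.68-fold higher (log2 change 1.42 ± 0.23 SE, adjusted p = 0.000449). The 5 red blood cell genes had a summed median of 46.2 CPM in antibody libraries and 38.3 CPM in IgG libraries. Counted over transcripts of at least 1500 bases, an alternative added after the data were seen, the log2 change of Ggt1 was 2.48, and with an offset for transcript length it was 1.25.

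**Figure D2:**
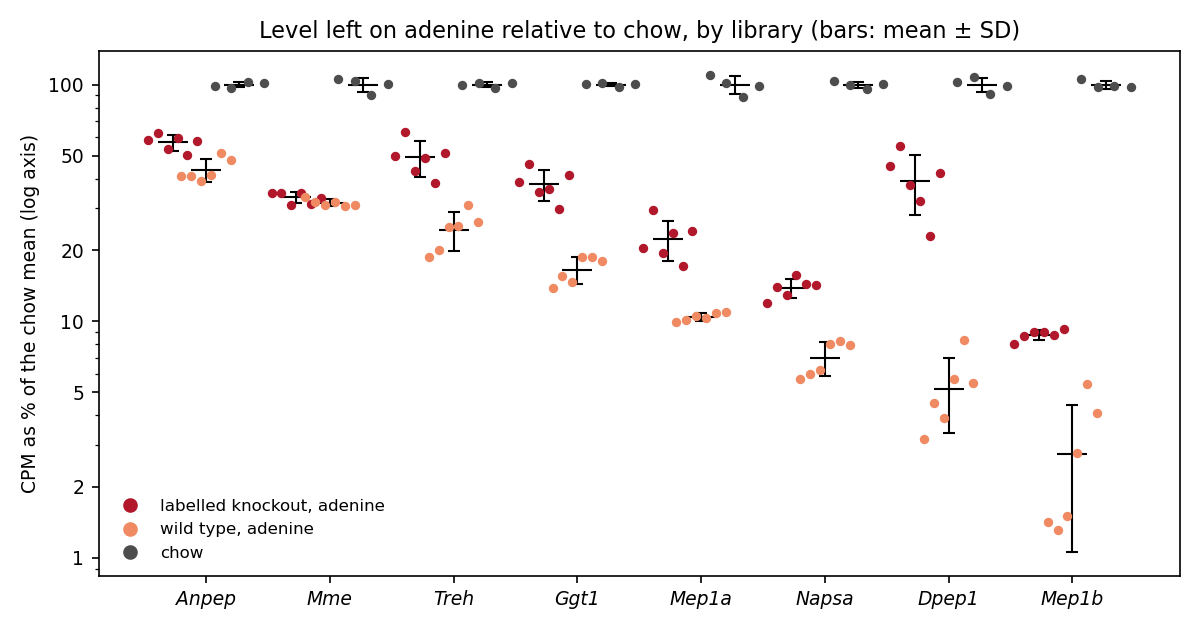
CPM of each gene (x axis) as % of its mean in chow libraries (log y axis), for every library of the knockout experiment (points) with mean ± SD bars. Libraries labelled knockout held between 8.78% (Mep1b) and 56.9% (Anpep) of the chow level on average, and wild-type libraries on adenine between 2.75% and 43.7%. In deposited TPM every adenine mean was a larger share of its chow mean. Anpep, for one, had 85.9 TPM in libraries labelled knockout and 100.1 TPM in chow libraries.

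Mep1a and Mep1b encode the alpha and beta subunits of meprin, a zinc metalloprotease of the brush border: the beta subunit spans the membrane and tethers the alpha subunit, which is otherwise secreted. Mep1a had a lowest, median and highest value of 156, 199.5 and 267 CPM in libraries labelled knockout and of 89.9, 94.6 and 99.3 CPM in wild-type libraries, and 999.8, 924, 808 and 896 CPM in chow libraries. Mep1b had 13.7, 15.2 and 15.9 CPM (lowest, median, highest) in libraries labelled knockout and 2.25, 3.68 and 9.33 CPM in wild-type libraries, and 182, 168, 169 and 168 CPM in chow libraries. For both subunits the 3 groups stood apart, and the wild-type libraries numbered 1 to 3 held the 3 lowest Mep1b values. Mep1b fell most of the 8 genes, to 2.75% of the chow level in wild-type libraries (log2 change -5.17 ± 0.24 SE) and to 8.78% in libraries labelled knockout (-3.51 ± 0.22 SE). Mep1a fell to 10.5% of chow in wild-type libraries (-3.26 ± 0.11 SE) and to 22.3% in libraries labelled knockout (-2.16 ± 0.11 SE). Against wild type, libraries labelled knockout held 3.16-fold more Mep1b (log2 change 1.66 ± 0.24 SE, edgeR adjusted p = 1.80e-05) and 2.14-fold more Mep1a (1.09 ± 0.097 SE, adjusted p = 1.17e-07).

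The balance between the subunits differed between adenine and chow. Libraries labelled knockout held 13.4 ± 2.61 Mep1a reads per Mep1b read, wild-type libraries on adenine 26.5 ± 13.2 and chow libraries 5.27 ± 0.346 (SD). The ratio was higher than in chow, without overlap, in libraries labelled knockout (exact permutation p = 0.00476, adjusted 0.0127) and in wild-type libraries (exact p = 0.00952, adjusted 0.0229). Between libraries labelled knockout and wild type the groups overlapped and the test missed the threshold (exact permutation p = 0.0519, adjusted 0.0733). In the antibody experiment Mep1a had 704, 944, 907 and 1145 CPM in antibody libraries against 272, 255, 333 and 245 CPM in IgG libraries. Mep1b had 37.7, 50.5, 44.8 and 60.6 CPM in antibody libraries against 15.3, 6.05, 17.8 and 9.97 CPM in IgG libraries. Every antibody library stood above every IgG library for both subunits, with Mep1a 3.35-fold (log2 change 1.74 ± 0.15 SE, edgeR adjusted p = 4.36e-05) and Mep1b 3.95-fold higher (1.98 ± 0.28 SE, adjusted p = 0.000231). Their ratio was 19.1 ± 0.755 in antibody libraries and 25.8 ± 11.3 in IgG libraries, which overlapped (exact permutation p = 0.371, n = 4 each).

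**Figure D3:**
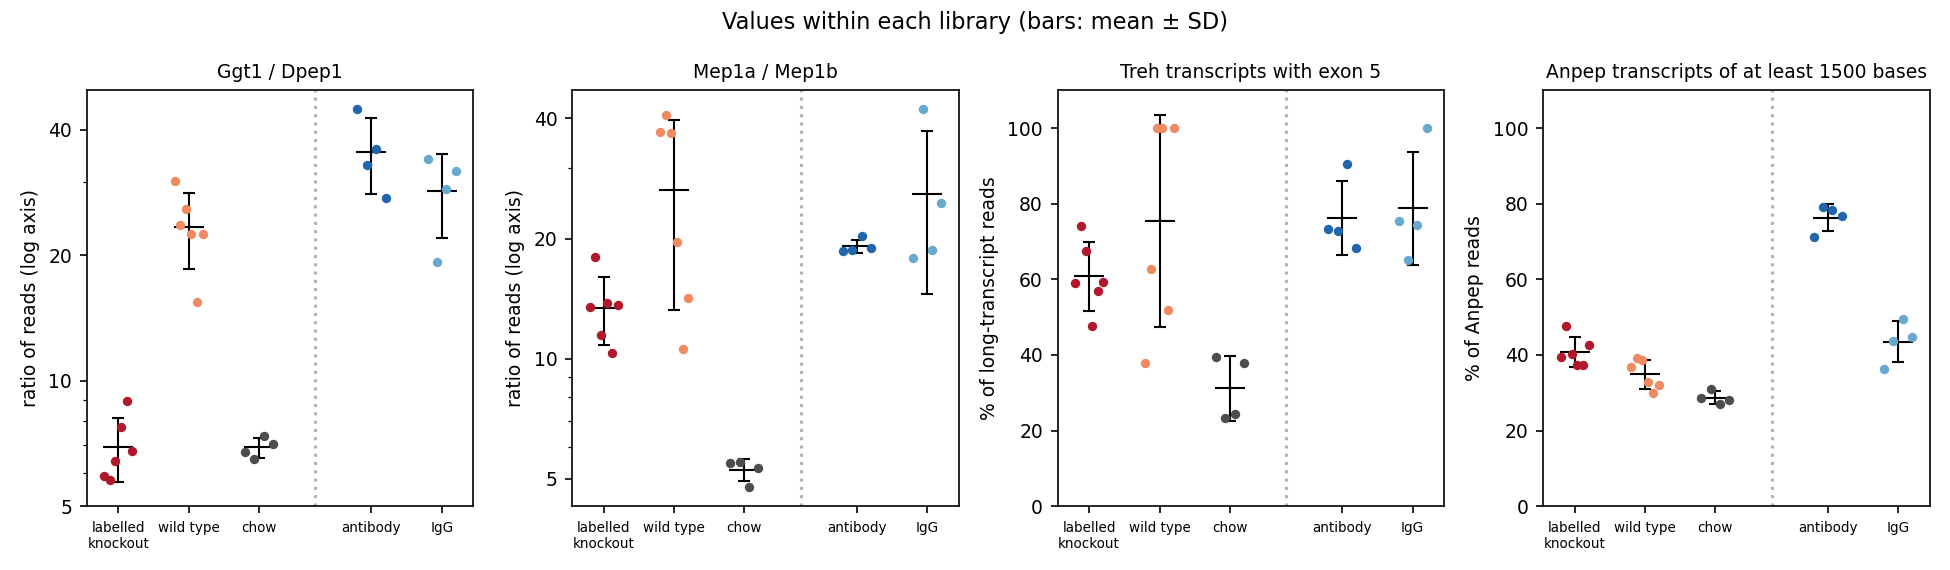
Values that compare reads inside a library (points, with mean ± SD bars) by group (x axis): the Ggt1 to Dpep1 and Mep1a to Mep1b read ratios (log y axes), the % of reads of long Treh transcripts assigned to the one with exon 5, and the % of Anpep reads on transcripts of at least 1500 bases. The Ggt1 to Dpep1 ratio of libraries labelled knockout (mean 6.93) lies with that of chow (6.91) and below that of wild type on adenine (23.3).

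Anpep and Mme encode broad peptidases of the same membrane, and they were the members with the smallest changes between libraries labelled knockout and wild type. Anpep encodes aminopeptidase N, which trims neutral residues from the amino end of peptides, and Mme encodes neprilysin, which cuts peptides such as natriuretic peptides and is also found on podocytes. Anpep had a lowest, median and highest value of 57.9, 66.7 and 71.5 CPM in libraries labelled knockout and of 44.8, 47.5 and 59.0 CPM in wild-type libraries, and 113, 111, 118 and 117 CPM in chow libraries. The highest wild-type library lay above the lowest library labelled knockout, and both groups lay below chow. Anpep was 1.30-fold higher in libraries labelled knockout than in wild-type libraries (log2 change 0.38 ± 0.065 SE, edgeR adjusted p = 0.000112), and fell to 56.9% of chow in libraries labelled knockout and to 43.7% in wild-type libraries. Mme had 60.8, 66.3 and 68.4 CPM (lowest, median, highest) in libraries labelled knockout and 60.0, 61.6 and 65.8 CPM in wild-type libraries, and 206, 202, 177 and 198 CPM in chow libraries. The adenine groups overlapped in part, with 3 libraries labelled knockout above every wild-type library, and both lay far below chow. The log2 change of Mme between libraries labelled knockout and wild type was 0.07 (95% interval -0.02 to 0.17, edgeR adjusted p = 0.208), and the levels were 33.4% of chow in libraries labelled knockout and 31.7% in wild-type libraries. The 5 podocyte markers were higher in libraries labelled knockout (5 of 5, summed median 296 CPM against 149 CPM in wild-type libraries), where 25.1% of all genes tested were higher. Their part in the Mme value was not tested.

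With the antibody both genes rose. Anpep had 87.1, 92.3, 84.5 and 95.8 CPM in antibody libraries against 40.6, 36.1, 47.8 and 41.7 CPM in IgG libraries, and Mme had 146, 149, 156 and 187 CPM in antibody libraries against 107, 130.1, 125 and 125 CPM in IgG libraries. Neither overlapped. The fold was 2.17 for Anpep (log2 change 1.11 ± 0.086 SE, edgeR adjusted p = 4.36e-05) and 1.31 for Mme (0.39 ± 0.094 SE, adjusted p = 0.00476). Under upper-quartile scaling the log2 change of Mme was 0.23.

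The size of the Anpep change depended on which transcripts were counted. Reads of Anpep were shared mainly between Anpep-201, the full-length coding transcript, and Anpep-206, a 770-base transcript annotated as a retained intron. Transcripts of at least 1500 bases held 76.4 ± 3.52% of Anpep reads in antibody libraries against 43.5 ± 5.44% in IgG libraries, without overlap (SD, exact permutation p = 0.0286, the smallest this design allows, adjusted 0.0457). They held 40.8 ± 3.94% in libraries labelled knockout and 34.9 ± 3.84% in wild-type libraries, which overlapped (exact permutation p = 0.0281, adjusted 0.0457), and 28.7 ± 1.69% in chow libraries. Counted over those transcripts the log2 change of Anpep with the antibody was 1.92, with an offset for transcript length it was 0.36, and the deposited TPM averaged 51.2 ± 2.62 in antibody libraries against 46.5 ± 4.75 in IgG libraries. In libraries labelled knockout against wild type the corresponding log2 changes were 0.62 and 0.28, and in libraries labelled knockout against chow, where Anpep fell by 0.81, the change over long transcripts was -0.30. Of Ggt1, long transcripts held 68.4 ± 3.06% of reads in antibody libraries against 39.9 ± 5.51% in IgG libraries, and 53.9 ± 5.64% in libraries labelled knockout against 43.1 ± 2.66% in wild-type libraries, neither pair overlapping. Chow libraries, at 46.7 ± 3.10%, overlapped the wild-type libraries (exact permutation p = 0.0952, adjusted 0.120). Over whole libraries, the median share of reads on retained-intron transcripts was 7.07% in libraries labelled knockout, 8.20% in wild-type libraries, 3.48% in chow libraries, 3.12% in antibody libraries and 4.40% in IgG libraries, and its part in these shares was not tested.

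Treh encodes trehalase, which splits the sugar trehalose into glucose and is the one member that acts on a sugar. It had a lowest, median and highest value of 12.9, 16.7 and 21.3 CPM in libraries labelled knockout and of 6.27, 8.43 and 10.4 CPM in wild-type libraries, and 33.5, 34.1, 32.6 and 34.3 CPM in chow libraries. The 3 groups stood apart in CPM. In deposited TPM, libraries labelled knockout (8.63 to 12.4 TPM) overlapped chow libraries (12.1 to 13.9 TPM). Treh was 2.02-fold higher in libraries labelled knockout than in wild-type libraries (log2 change 1.02 ± 0.12 SE, edgeR adjusted p = 1.62e-06), at 49.3% of chow in libraries labelled knockout and 24.3% in wild-type libraries. With the antibody it had 39.0, 42.8, 33.2 and 42.5 CPM against 24.3, 15.9, 23.1 and 18.3 CPM with IgG, and was 1.93-fold higher without overlap (log2 change 0.95 ± 0.13 SE, adjusted p = 0.000239).

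Treh reads also differed in the transcripts to which they were assigned. Treh-201 keeps exon 5 of 15, a 101-base, wholly coding exon at chr9:44682632-44682732 on the plus strand (GENCODE M21, GRCm38), while Treh-202 and Treh-203 lack it. The exon is shown because it sets apart the transcripts whose share differed, and its length is not a multiple of 3. Of those lacking it, Treh-202 is annotated as protein coding and Treh-203 as a target of nonsense-mediated decay. Treh-202 held on average 66.7% of all Treh reads in chow libraries and 6.99% in libraries labelled knockout. Treh-203 held 0% and 31.7%.
Treh exon 5: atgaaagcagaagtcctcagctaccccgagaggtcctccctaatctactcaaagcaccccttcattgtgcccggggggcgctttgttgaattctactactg
The share of long-transcript Treh reads assigned to Treh-201 was 60.8 ± 9.14% in libraries labelled knockout, 75.4 ± 28.1% in wild-type libraries on adenine and 31.2 ± 8.60% in chow libraries (SD). It rests on the deposited estimates per transcript, and reads over the exon itself were not counted. Libraries labelled knockout lay above chow without overlap (exact permutation p = 0.00476, adjusted 0.0127). Wild-type libraries ranged from 37.9% to 100%, overlapped the highest chow library at 39.5%, and had an exact permutation p of 0.0333, adjusted 0.05. With 153 to 270 such reads in a wild-type library, the share rests on few reads there. The estimate for the transcripts lacking the exon was 0 reads in wild-type libraries 3, 4 and 6. It was also 0 in IgG library 4, where Treh-201 had 959 reads. The share was 76.2 ± 9.81% in antibody libraries and 78.8 ± 14.9% in IgG libraries (exact permutation p = 0.714, n = 4 each).

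Napsa, the lysosomal member, had the highest mean TPM of the members in every group and the largest loss of CPM relative to chow. In antibody libraries its TPM overlapped that of Ggt1, and its mean of 778 CPM lay below the 925 CPM of Mep1a. Napsa had a lowest, median and highest value of 599, 707 and 788 CPM in libraries labelled knockout and of 286, 355 and 415 CPM in wild-type libraries, and 5209, 5001, 4834 and 5041 CPM in chow libraries. All groups stood apart, both adenine groups far below chow. Napsa fell to 13.8% of chow in libraries labelled knockout (log2 change -2.85 ± 0.11 SE) and to 7.01% in wild-type libraries (-3.83 ± 0.11 SE), and was 1.97-fold higher in libraries labelled knockout than in wild-type libraries (0.98 ± 0.095 SE, edgeR adjusted p = 2.86e-07). With the antibody it had 702, 773, 804 and 835 CPM against 504, 426, 519.9 and 439 CPM with IgG, and was 1.65-fold higher without overlap (0.72 ± 0.093 SE, adjusted p = 0.000144). Retained-intron transcripts held 3.92 ± 0.272% of its reads in libraries labelled knockout, 9.41 ± 1.47% in wild-type libraries and 0.780 ± 0.134% in chow libraries, and 1.69 ± 0.428% in antibody libraries against 3.97 ± 0.261% in IgG libraries (SD), and no compared pair of these groups overlapped. The longest of them, Napsa-202, averaged 334 reads in libraries labelled knockout, 398 in wild-type libraries and 477 in chow libraries, while the coding transcript Napsa-201 averaged 17240, 8338 and 99560 reads in the same groups. Napsa-203, a shorter retained-intron transcript, had another order of groups, with 361, 461 and 297.5 reads. These reads were not scaled for library size.

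**Figure D4:**
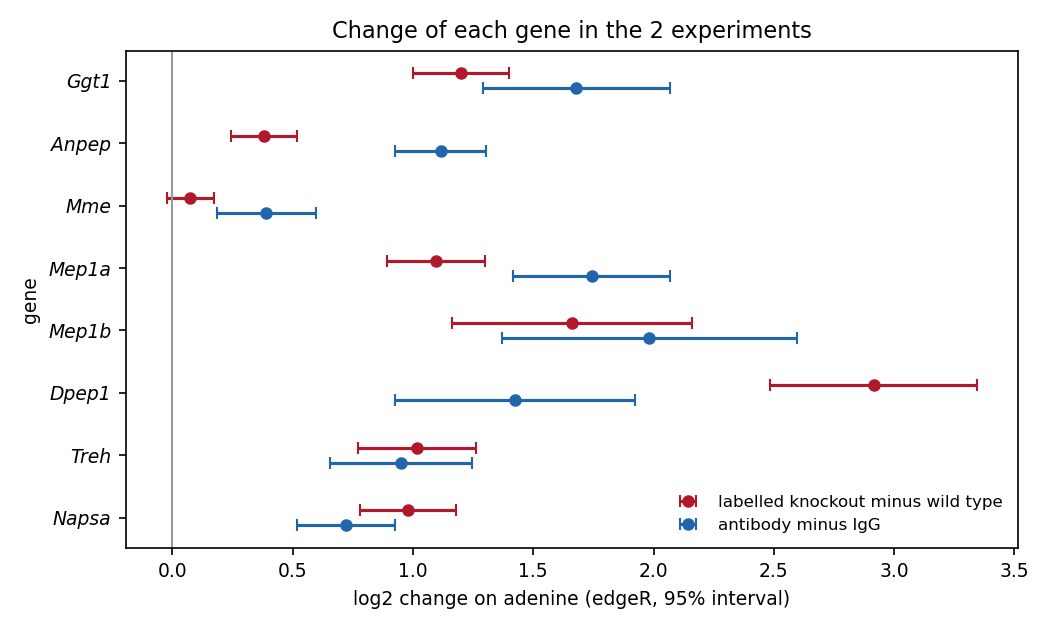
Log2 change (x axis, edgeR estimate with 95% interval) of each gene (y axis) between libraries labelled knockout and wild type on adenine (red) and between antibody and IgG (blue). Dpep1 lies farthest to the right in the knockout experiment (2.91, against 1.42 with the antibody), and the interval of Mme in that experiment includes 0.

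The effects of the 2 experiments were compared in one fit of the 20 adenine libraries, as the change in libraries labelled knockout against wild type minus the change with antibody against IgG. In that contrast 37.9% of the 17113 genes tested were called, 16.3% as larger and 21.6% as smaller in the knockout experiment. Of the 8 genes 1 was larger and 4 were smaller. Dpep1 was larger in the knockout experiment (log2 difference 1.41 ± 0.36 SE, edgeR adjusted p = 0.00385). Anpep (-0.81 ± 0.12 SE, adjusted p = 3.18e-05), Mep1a (-0.73 ± 0.18 SE, adjusted p = 0.00405), Mme (-0.39 ± 0.096 SE, adjusted p = 0.00296) and Ggt1 (-0.56 ± 0.21 SE, adjusted p = 0.0365) were smaller. The Ggt1 call was lost under upper-quartile scaling, with the length offset, with a replicate block and without any 1 of the libraries labelled knockout 3, 4 or 5, wild-type 4, 5 or 6, antibody 2 or 4, or IgG 2 or 4. The Anpep call was lost with the length offset (-0.14, adjusted p = 0.377), while over long transcripts it was -1.37. Mep1b (-0.40, 95% interval -1.29 to 0.49), Treh (-0.01, -0.44 to 0.42) and Napsa (0.18, -0.13 to 0.49) did not pass the threshold. The experiments differed in depth and in their control groups, so a difference between treatments cannot be told apart from one between experiments.

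Profiles over the 16 libraries of the knockout experiment placed the members in order of likeness, measured as the root mean square difference of centred log2 CPM. Ggt1 and Treh were the closest pair (0.24), followed by Anpep and Mme (0.32), and Anpep and Mep1b were the farthest (1.67). In the antibody experiment the order differed: Anpep and Treh were closest (0.164), Mme and Mep1b farthest (0.971), and Ggt1 and Treh were at 0.395. Among 12108 other genes of at least 5 CPM on average, the 5 nearest to the mean profile of the 8 were Mgll (0.106), Mfsd4b5 (0.112), Rida (0.117), Macrod2 (0.120) and Aqp11 (0.131). In the 8 libraries of the antibody experiment, which did not choose them, their distances were 0.536, 0.124, 0.157, 0.228 and 0.0962 in the same order. For single members the nearest gene was Gcdh for Ggt1 (0.067), Spp2 for Dpep1 (0.187), Cbr1 for Mep1a (0.088) and Aadat for Mep1b (0.156). It was Mtus1 for Anpep (0.061), Coprs for Mme (0.104), Afm for Treh (0.112) and Slc22a13 for Napsa (0.157). Over the antibody experiment the distances of these 8 genes from the same members ran from 0.143 (Afm and Treh) to 0.844 (Cbr1 and Mep1a).

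Other hydrolases of the tubule surface were split with the antibody and mostly higher in libraries labelled knockout than in wild type. Of 17 tested, 12 were higher and 2 lower in libraries labelled knockout than in wild type (25.1% and 21.3% of all genes tested). In wild-type libraries on adenine 5 were higher and 12 lower than in chow libraries (44.0% and 40.9% of all genes tested). Of 14 tested, 7 were higher and 4 lower in antibody than in IgG libraries, where 27.2% of all genes tested were higher and 28.0% lower. Cpm, a carboxypeptidase of the membrane, was higher in libraries labelled knockout than in wild type (log2 change 1.14) and lower with the antibody than with IgG (-0.55), with a log2 difference between the effects of 1.61 ± 0.21 SE (edgeR adjusted p = 9.67e-06). Ggt5, a relative of Ggt1 that also cleaves glutathione conjugates, rose in libraries labelled knockout (0.54) and fell with the antibody (-1.16), with a difference of 1.63 ± 0.20 SE. Folh1, a glutamate carboxypeptidase, and Enpep, aminopeptidase A, rose in libraries labelled knockout (log2 changes 0.66 and 0.78) and with the antibody (1.44 and 1.13). Dpep2, a leukocyte relative of Dpep1, moved the other way: it averaged 5.39 CPM in libraries labelled knockout, 7.30 CPM in wild-type libraries and 0.761 CPM in chow libraries, a log2 change of -0.44 between libraries labelled knockout and wild type, and it fell with the antibody (-1.11). The 6 macrophage markers fell with the antibody as well (6 of 6, summed median 159 CPM against 321 CPM with IgG), and their part in the Dpep2 value was not tested.

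Paralogues of the members outside the brush border were split. Of 18 tested, 7 were higher and 3 lower in libraries labelled knockout than in wild-type libraries, with a median log2 change of 0.04, and 6 were higher and 3 lower of 17 with the antibody, with a median of 0.05. Over all genes tested, 25.1% were higher and 21.3% lower in the first comparison, and 27.2% and 28.0% in the second. Ctse, an aspartic protease related to Napsa, was higher in libraries labelled knockout (0.77, edgeR adjusted p = 0.0093) and lower with the antibody (-0.73, adjusted p = 0.0406). Antibody libraries held only 11 to 17 Ctse reads. Bmp1, a metalloprotease related to the meprins that processes procollagen, fell in both comparisons (-0.29 and -1.09). Kel, related to Mme and known from red blood cells, had 23 to 41 reads in libraries labelled knockout, 37 to 64 reads in wild-type libraries and at most 1 read in a chow library.

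Genes that act upstream and downstream of these enzymes were counted likewise. Over all genes tested, 25.1% were higher and 21.3% lower in libraries labelled knockout than in wild-type libraries. The shares were 40.9% lower in wild-type than in chow libraries, and 27.2% higher and 28.0% lower with the antibody. Of the 8 cytosolic dipeptidases and acylases, which finish peptide breakdown inside the cell, 7 were higher in libraries labelled knockout than in wild-type libraries (median 0.95), 7 were lower in wild-type than in chow libraries (median -2.06) and all 8 were higher with the antibody (median 0.98). Acy3, which acts on acetylated amino acids, and Cndp1, which splits carnosine, had the largest log2 changes of the list in libraries labelled knockout (1.31 and 1.29) and with the antibody (1.55 and 1.74). Of the 10 apical carriers of amino acids, peptides and glucose, 9 were higher and 1 lower in libraries labelled knockout than in wild-type libraries, and 8 were higher with the antibody. Slc6a19, the main carrier of neutral amino acids, rose in libraries labelled knockout (2.29 ± 0.21 SE) and with the antibody (2.10 ± 0.24 SE), and the peptide carrier Slc15a1 was lower in libraries labelled knockout (-0.42). Of 15 genes of the microvillus scaffold, 13 were higher in libraries labelled knockout than in wild-type libraries (median 0.31), and with the antibody 10 were higher and 1 lower (median 0.49), the lower call, Prom1 (-0.27), being lost without any 1 antibody library or without IgG library 2, 3 or 4. Tmem27, which encodes collectrin, the partner of Slc6a19, and the scaffold gene Pdzk1 had the largest log2 changes of the list in libraries labelled knockout (1.62 and 1.04) and with the antibody (1.13 and 1.18).

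The genes of the gamma-glutamyl cycle, which makes and recycles glutathione inside the cell, differed between the experiments. Of 7 tested, 3 were higher and 1 lower in libraries labelled knockout than in wild-type libraries (median 0.16), whereas all 7 were higher with the antibody (median 0.74), and in the difference of effects 6 of the 7 were called as smaller in the knockout experiment. Over all genes tested the shares were 25.1% higher and 21.3% lower, 27.2% higher with the antibody, and 21.6% smaller in the difference. The lower call, Gclc (-0.18), was lost without any 1 of the libraries labelled knockout 1, 2, 3, 5 or 6 or wild-type 3 to 6. Ggct, the cyclotransferase that takes up the products of Ggt1, rose in libraries labelled knockout (0.60) and with the antibody (0.74), after the largest fall of the list in wild-type against chow libraries (-2.84). Chac1, which breaks down glutathione in the cytosol, had log2 changes of 0.00 in libraries labelled knockout against wild type and 1.27 with the antibody, with a log2 difference of -1.34 ± 0.33 SE (edgeR adjusted p = 0.00286) at 12 to 45 reads a library on adenine.

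Among regulators of proximal tubule genes, Hnf4a, a nuclear receptor of differentiated tubule cells, averaged 225 ± 41.4 CPM in libraries labelled knockout, 161 ± 13.5 CPM in wild-type libraries and 606 ± 17.9 CPM in chow libraries (SD). It had 493 ± 76.8 CPM in antibody libraries against 216 ± 24.8 CPM in IgG libraries. Its log2 change was 0.48 ± 0.095 SE in libraries labelled knockout against wild type (edgeR adjusted p = 0.000444) and 1.19 ± 0.12 SE with the antibody (adjusted p = 6.40e-05), with a difference of -0.78 ± 0.17 SE (adjusted p = 0.00146). Pax8, a transcription factor of the kidney lineage, was lower in libraries labelled knockout than in wild-type libraries (-0.28 ± 0.071 SE, adjusted p = 0.0039). Ppara, a nuclear receptor of fatty acid oxidation, was higher with the antibody than with IgG (1.48 ± 0.15 SE, adjusted p = 5.81e-05).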

How the data were processed

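RNA-seq libraries of mouse kidney (strand-specific TruSeq kit, 400 ng total RNA, RNeasy extraction, per the labels' protocols) were analysed from the deposited tables of transcripts. The submitters' processing notes name Salmon, FastQC, DESeq, DESeq2 and the build GRCm39, without versions or options. The authors deposited estimated counts (reads assigned per transcript, not normalized), TPM and, per the file headers, effective length as another column, for each library without pooling. Labels do not say whether libraries came from separate animals, so p-values measure the spread between these libraries.

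Transcript IDs without version were matched to GENCODE M21 (GRCm38): 115636 of 116755 matched, and the 1119 others, with 0.45% to 0.57% of reads, were left out. Estimated counts were summed per gene, rounded, filtered with filterByExpr and TMM-scaled within each experiment, so levels are not set side by side across experiments. edgeR 4.0.16 (R 4.3.3) tested each comparison by quasi-likelihood with Benjamini-Hochberg adjustment over all genes tested, at 0.05. The knockout experiment was fitted with its 3 groups together. The difference of effects was fitted on the 20 adenine libraries. The test was checked on simulated counts. Deposited TPM were summed per gene and only described. Alternatives were RLE and upper-quartile scaling, no filter, DESeq2 1.42.0, limma 3.58.1 (voom), an offset from effective length, only the groups compared, the replicate block, each library left out, and long transcripts (at least 1500 bases, chosen after the data were seen). Tests of values within a library were exact permutation tests over libraries, two-sided. Without molecular identifiers, reads are not independent molecules.

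The members and the lists were chosen with earlier results of these data known. Named genes are all 8 members and, of each list, at most the 2 highest and 2 lowest called log2 changes of a comparison; the same genes are then given in the other comparisons. Likeness used log2 CPM with a prior count of 2. Promoter windows are RefSeq's. Some genes of the list of regulators, and the counts over that list, are not reported here.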

Additional observations from a re-analysis of the deposited data

Results flagged for a closer look

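Dixon's test at 95% was applied to 70 groups of values, and chance marks about 1 in 20. It marked 1 chow library with 182 CPM of Mep1b, against 168 to 169 CPM in the other chow libraries. It also marked 1 IgG library with 4.62 CPM of Dpep1, against 6.89 to 7.25 CPM in the others, and 1 antibody library with 20.2 Mep1a reads per Mep1b read.

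The effect in libraries labelled knockout against wild type and that of antibody against IgG differed, by the edgeR contrast of the 2 effects, for 5 of the 8 genes. In that contrast 37.9% of the 17113 genes tested were called. The log2 difference was 1.41 for Dpep1, with the larger effect in the knockout experiment, and -0.81 for Anpep, -0.73 for Mep1a, -0.56 for Ggt1 and -0.39 for Mme, with the larger effect in the antibody experiment. With the length offset the Anpep and Ggt1 calls were lost, and the Ggt1 call was also lost in other alternatives given below. Which of the differences between the experiments goes with these values was not tested.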

How the results depend on the processing

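The counts of members called were 7 of 8 in libraries labelled knockout against wild type and 8 of 8 in both comparisons with chow and with the antibody, in every alternative run. In the main fit 46.4% of all genes tested were called in either direction for libraries labelled knockout against wild type, and 55.3% with the antibody. Against chow the shares were 84.9% for wild-type libraries and 80.1% for libraries labelled knockout. For the difference of effects the share was 37.9%. For the difference of effects 5 members were called, 4 or 5 in every other alternative, and 3 with the transcript-length offset, which lost Ggt1 and Anpep. Without replicate libraries in turn the Ggt1 difference ranged from -0.70 to -0.44, with adjusted p from 0.00948 to 0.0934, and passed 0.05 no longer without libraries labelled knockout 3, 4 or 5, wild-type 4, 5 or 6, antibody 2 or 4, or IgG 2 or 4. It was -0.41 under upper-quartile scaling (adjusted p = 0.105) and -0.30 with the length offset (adjusted p = 0.262). The Treh difference, not called in any alternative, changed sign to 0.14 under upper-quartile scaling, to 0.0014 with no filter on low counts and to 0.070 over long transcripts, and ranged from -0.103 to 0.0935 without single libraries. The cause of these shifts was not tested.

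Same-numbered libraries did not deviate together (correlations of -0.144 to 0.0684), so the replicate numbers were not taken as pairs. With the replicate block the members called were 7, 8, 8 and 8, and 4 for the difference of effects, where Ggt1 had -0.59 (adjusted p = 0.0834). Of the 16959 genes tested in the knockout experiment, 7522, 14101 and 13241 were then called in the same order. With the antibody 8270 of 16404 genes were called, and 5697 of 17113 for the difference. Upper-quartile scaling moved the median log2 change of all genes by 0.23 for wild type against chow, 0.16 for libraries labelled knockout against chow and -0.16 for antibody against IgG. The share of calls that were higher was then 40.7% for libraries labelled knockout against wild type (54.1% with TMM), 31.1% with the antibody (49.3% with TMM) and 69.1% for the difference (43.0% with TMM).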
